A study of Mus musculus with 10 samples.

Results

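The integrated stress response and the serine synthesis pathway were followed through 10 genes of the deposited count table, chosen by name from its 23337 genes: Atf4, Atf5, Atf3, Ddit3, Trib3, Asns, Phgdh, Psat1, Mthfd2 and Gdf15. The study measured polyadenylated RNA in cardiomyocytes of mice that carried a loxP-flanked allele of Actn2, the gene of the sarcomeric Z-disc protein alpha-actinin-2. The knockout group carried this allele on both chromosomes (genotype Actn2-FF, 5 animals) and the control group on 1 (Actn2-F+, 5 animals), so that the controls become heterozygous when Cre acts. All 10 animals received Cre recombinase in an adeno-associated virus under the cardiac troponin T promoter (AAV9-cTNT-Cre) on postnatal day 1, and their cells were collected on postnatal day 14 by collagenase perfusion and fluorescence-activated sorting. Both groups therefore share the virus and Cre, no group without them is compared here, and deletion can occur only in cells that the virus reached. The colour gate of the sort is not given in the sources used here. The design text calls the 5 samples of a group biological replicates, and the labels name no batch or sequencing date.

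The integrated stress response starts when a kinase phosphorylates the translation initiation factor eIF2, which lowers general protein synthesis while the transcription factor ATF4 is translated more. ATF4 acts with other basic leucine zipper factors on genes for amino acid synthesis and uptake, on the factors ATF3, ATF5 and CHOP (the product of Ddit3), and on regulators of its own output. Part of the control of ATF4 and ATF5 lies in translation and is not visible in RNA levels. In the serine pathway, PHGDH oxidises the glycolytic intermediate 3-phosphoglycerate, PSAT1 transaminates its product and PSPH removes the phosphate. MTHFD2 then belongs to the mitochondrial folate reactions that carry the one-carbon unit of serine. In muscle and heart, these genes and the secreted factor GDF15 are known as part of the response to mitochondrial dysfunction.

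Of the 10 genes, Psat1 was the only one that passed the test for a difference between knockout and heterozygous cardiomyocytes. Its level was 2.02-fold higher in the knockouts, whereas the factors upstream (Atf4, Atf5, Atf3, Ddit3), the feedback gene Trib3 and the enzyme genes Asns and Mthfd2 did not pass it. Gdf15 had the higher group mean in the knockouts without passing, and Phgdh was too low to be tested. Thus 1 of 9 tested genes was called (11.1%), in the higher direction, against 18.9% of all 11870 tested genes called in either direction, 10.2% higher and 8.64% lower. The share among these genes is near the 10.2% called higher and below the 18.9% called in either direction. Their median log2 fold change was 0.05, beside 0.00 over all tested genes. Levels are given in CPM, read counts scaled to a common library total, with trimmed-mean scaling of the totals. Fold changes are knockout against heterozygote from edgeR's quasi-likelihood test, with Benjamini-Hochberg adjustment over all tested genes and a threshold of 0.05.

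The libraries held between 8086656 and 25237696 counts in the heterozygotes and between 9265270 and 16892340 in the knockouts. Before the trimmed-mean scaling, a count of 3 therefore stood for 0.119 to 0.371 CPM in the heterozygotes and 0.178 to 0.324 in the knockouts. The gene levels below are in scaled CPM, in which 3 counts stand for slightly different values. Actn2 was at 3180 ± 358 CPM (SD, n = 5) in the heterozygotes and 1217 ± 55.3 CPM (n = 5) in the knockouts, and no knockout reached a heterozygote (log2 fold change -1.39, adjusted p 3.48e-07 in edgeR). The 8 cardiomyocyte markers summed to 85547 to 109969 CPM in the heterozygotes and 82103 to 106548 CPM in the knockouts, and 1 of the 8, Tnni3, was called lower. Markers of other cells were present at lower levels: the 8 endothelial markers summed to 474 to 734 CPM in the heterozygotes and 310 to 542 CPM in the knockouts, and 1 of the 8 was called, in the lower direction. Fibroblast markers summed to 330 to 538 CPM and 318 to 648 CPM, and leukocyte markers to 13.1 to 31.8 CPM and 7.50 to 10.2 CPM, in the same order of groups. The leukocyte sums did not overlap, and 1 of the 3 leukocyte markers that were tested, Csf1r, was called lower, a call lost without heterozygote 3. Smooth muscle and pericyte markers summed to 475 to 700.2 CPM and 542 to 697 CPM, and 1 of these 8, Cspg4, was called higher. Of 6 erythroid markers, the 4 globin genes were at 0 in all 10 libraries, but their annotated exons overlap in pairs, so that this 0 does not show absence. Heterozygote 3 stood apart in interferon-response genes: 12 of them summed to 746 CPM there, to 47.8 to 56.3 CPM in the other 4 heterozygotes and to 48.1 to 63.4 CPM in the knockouts. In such bulk samples, fewer cells of a type and less RNA per cell cannot be told apart.

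The promoters were read for a site that ATF4 is known to bind with C/EBP partners, whose core was searched as TGATGNAA on both strands. The windows run from 250 bases before to 50 bases after each RefSeq start site (GRCm38.p6, the assembly of mm10). All 10 genes have a window, 13 windows in all, and 3 of them hold a match, against 1304 of all 32851 windows (3.97%). The matches lie in Asns at -23 to -16 from the start site on the gene's own strand, in Atf3 at -110 to -103 on the opposite strand, and in Trib3 at 15 to 22 bases after the start, also on the opposite strand. Neither of the 2 windows of Psat1 holds these letters, which says nothing about sites outside them or about the factor. Of the target, transporter and serine genes named below, Slc1a4, which rose, holds a match at -4 to 4 on the opposite strand. Chac1 and Pck2 hold a match and did not pass the test. Nupr1, Fgf21, Pycr1 and Slc7a11 hold one and were below the count filter. Bbc3, Sqstm1, Gpt2, Shmt1, Shmt2 and Srr were called and hold none in their windows. Slc7a5, Slc38a1 and Aldh1l2 were also called but had no window here, so their promoters were not searched. The stretch before the Psat1 start is shown because Psat1 was the gene that rose, and the stretches before the Asns and Atf3 starts because they hold the match in genes that did not pass the test. All 3 genes lie on the minus strand and are printed 5′ to 3′ in the direction of transcription, with the match in capitals: Psat1 at chr19:15925060-15925309, Asns at chr6:7693210-7693329 and Atf3 at chr1:191183334-191183473.
Psat1: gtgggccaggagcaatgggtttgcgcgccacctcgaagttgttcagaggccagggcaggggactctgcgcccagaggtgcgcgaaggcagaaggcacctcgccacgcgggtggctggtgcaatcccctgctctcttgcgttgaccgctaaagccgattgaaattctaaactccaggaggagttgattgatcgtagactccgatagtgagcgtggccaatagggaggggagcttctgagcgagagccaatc
Asns: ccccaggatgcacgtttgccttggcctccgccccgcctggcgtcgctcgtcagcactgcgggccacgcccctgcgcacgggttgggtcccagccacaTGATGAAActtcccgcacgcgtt
Atf3: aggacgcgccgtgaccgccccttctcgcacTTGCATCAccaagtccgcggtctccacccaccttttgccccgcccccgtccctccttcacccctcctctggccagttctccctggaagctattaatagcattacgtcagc

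**Figure D1:**
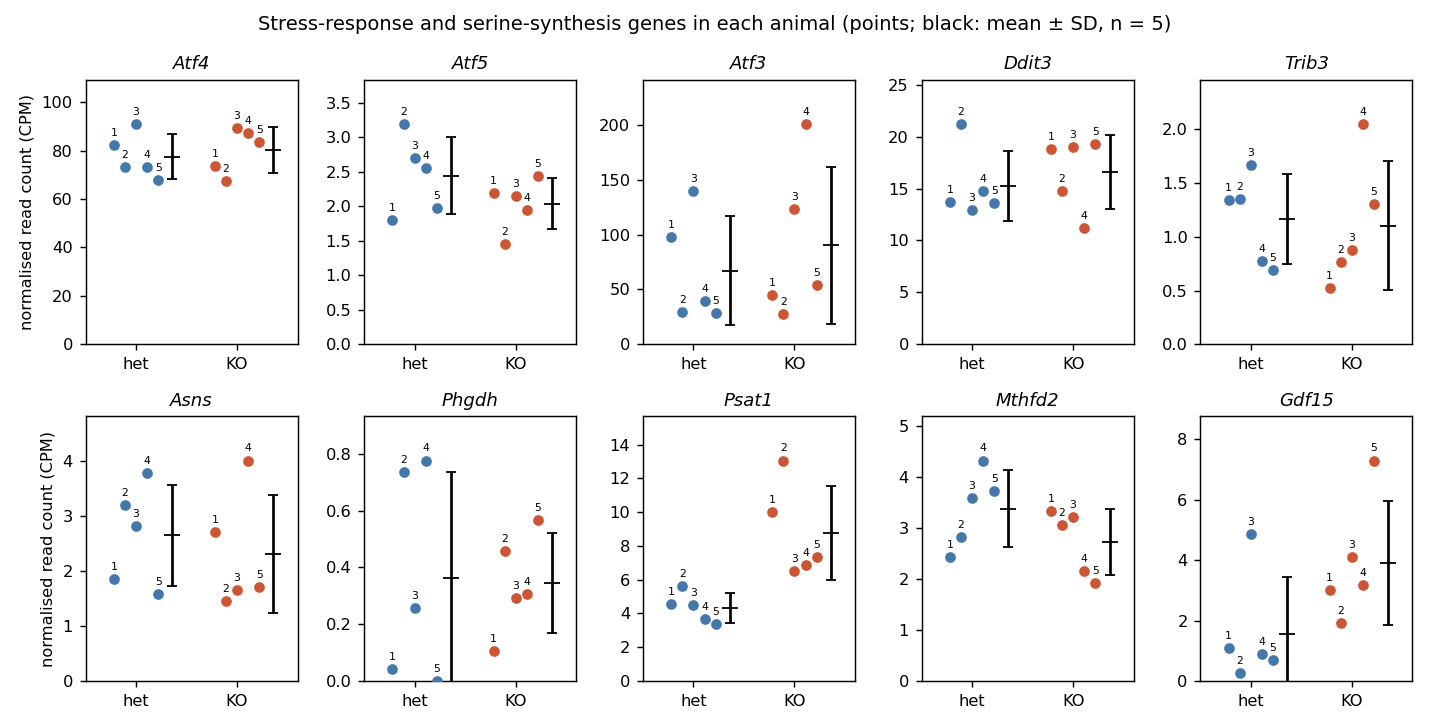
Level in CPM (y axis, linear from 0, own range per panel) of each of the 10 genes in the 5 heterozygous and the 5 knockout animals. Each point is 1 animal, the bar is the group mean and the whisker its SD, which is clipped at 0 for Phgdh and Gdf15. Only for Psat1 do the points of both groups stay apart, at 3.35 to 5.65 CPM in the heterozygotes and 6.54 to 13.1 CPM in the knockouts.

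Atf4 (chromosome 15, 80255184 to 80257541, plus strand, mm10), the central transcription factor of the response, was measured at 82.4, 73.2, 91.1, 73.2 and 67.7 CPM in heterozygotes 1 to 5 and at 73.6, 67.4, 89.5, 87.1 and 83.5 CPM in knockouts 1 to 5. The animals of both groups covered nearly the same range. The means were 77.5 ± 9.26 CPM (SD, n = 5) and 80.2 ± 9.37 CPM (n = 5), a log2 fold change of 0.05 with a standard error of 0.108 (edgeR adjusted p 0.800). Atf5 (chromosome 7, 44812256 to 44816658, minus strand) encodes a related factor with a known role in the mitochondrial stress response. It was read at 1.81, 3.19, 2.69, 2.55 and 1.97 CPM in the heterozygotes and 2.19, 1.45, 2.15, 1.95 and 2.43 CPM in the knockouts, on 19 to 43 counts per library. The groups overlapped, and the log2 fold change of -0.24 had a standard error of 0.256 (edgeR adjusted p 0.575). The counts are without strand, and Atf5 shares 64 exonic bases with Nup62 and 82 with Nup62-il4i1 on the opposite strand, out of 1993, so reads from these stretches cannot be assigned to 1 of the genes.

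Atf3 (chromosome 1, 191170297 to 191183333, minus strand) encodes a stress-induced repressor that is also known as an early-response gene. It varied most between animals of 1 group in CPM: 98.4, 29.1, 139.8, 39.4 and 28.7 CPM in the heterozygotes and 45.2, 28.0, 123, 201 and 54.5 CPM in the knockouts. Heterozygotes 1 and 3 and knockouts 3 and 4 were high, and the other 6 animals lay below 55 CPM. The log2 fold change of 0.42 was smaller than its standard error of 0.530 (edgeR adjusted p 0.633), and without knockout 4 it was -0.10. The 19 immediate-early genes, which cell isolation is known to induce, summed to 2403 CPM in heterozygote 1 and 2364 CPM in heterozygote 3, against 946 to 1536 CPM in the other heterozygotes. In the knockouts they summed to 1755 CPM in knockout 3 and 1354 CPM in knockout 4, within a range of 1159 to 1755 CPM. The sum did not follow Atf3 in every animal. It was 1406 CPM in knockout 5, with Atf3 at 54.5 CPM, and 1536 CPM in heterozygote 2, with Atf3 at 29.1 CPM. Of the 17 immediate-early genes that were tested, 5 fell in the knockouts and none rose, against a background of 8.64% lower. Without heterozygote 1 or 2 or knockout 1, 4 or 5 the list had 3 calls, and without knockout 2 it had 2. Leaving out heterozygote 3 gave 3 calls lower and 1 higher. The part of these genes in the Atf3 values was not tested.

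Ddit3 (chromosome 10, 127290793 to 127296288, plus strand), the gene of the pro-apoptotic factor CHOP, was at 13.7, 21.2, 12.9, 14.8 and 13.6 CPM in the heterozygotes and 18.8, 14.7, 19.02, 11.2 and 19.3 CPM in the knockouts. Heterozygote 2 was the highest animal of all and knockout 4 the lowest. The means of 15.3 ± 3.41 and 16.6 ± 3.57 CPM (SD, n = 5 each) gave a log2 fold change of 0.13 with a standard error of 0.179 (edgeR adjusted p 0.669). Ddit3 shares 68 of its 871 exonic bases (7.81%) with Mars on the opposite strand. Trib3 (chromosome 2, 152337425 to 152344060, minus strand) encodes a pseudokinase that ATF4 and CHOP induce and that restrains them. It was read at 1.34, 1.35, 1.67, 0.777 and 0.689 CPM in the heterozygotes and 0.521, 0.764, 0.878, 2.05 and 1.30 CPM in the knockouts, on 5 to 32 counts per library. The knockouts spread more widely and enclosed the heterozygotes, and the log2 fold change of -0.08 lay well inside its standard error of 0.394 (edgeR adjusted p 0.920).

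Asns (chromosome 6, 7675171 to 7693182, minus strand), which encodes asparagine synthetase and is a textbook ATF4 target, was at 1.85, 3.19, 2.82, 3.77 and 1.57 CPM in the heterozygotes and 2.71, 1.45, 1.66, 4.002 and 1.70 CPM in the knockouts. Knockout 4 was the highest animal and knockout 2 the lowest, so the knockouts enclosed the heterozygotes. The log2 fold change was -0.19 with a standard error of 0.343 (edgeR adjusted p 0.750). Mthfd2 (chromosome 6, 83305704 to 83317604, minus strand), the mitochondrial folate dehydrogenase and cyclohydrolase, was at 2.44, 2.82, 3.59, 4.33 and 3.74 CPM in the heterozygotes and 3.33, 3.06, 3.22, 2.16 and 1.92 CPM in the knockouts. The groups overlapped, with knockouts 4 and 5 below every heterozygote. Its log2 fold change was -0.30 with a standard error of 0.251 (edgeR adjusted p 0.450).

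Psat1 (chromosome 19, 15905123 to 15925059, minus strand) encodes phosphoserine aminotransferase, the second enzyme of serine synthesis. It was at 4.54, 5.65, 4.49, 3.66 and 3.35 CPM in heterozygotes 1 to 5 and at 10.0, 13.1, 6.54, 6.88 and 7.36 CPM in knockouts 1 to 5, on 33 to 171 counts per library. Every knockout was above every heterozygote, with knockouts 1 and 2 the farthest away. The same held, in this direction, for 8.41% of all tested genes. The mean rose from 4.34 ± 0.897 to 8.76 ± 2.76 CPM (SD, n = 5 each), a log2 fold change of 1.02 with a standard error of 0.228 (edgeR adjusted p 0.00632). It was called under each of the 19 other settings and left-out animals that were run, with log2 fold changes of 0.83 to 1.13 and adjusted p from 0.000448 to 0.0483. The weakest of these was the fit with the endothelial marker level as a covariate (log2 fold change 1.08, edgeR adjusted p 0.0483).

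Neither neighbouring step of the pathway gave a call. Phgdh (chromosome 3, 98313171 to 98339969, minus strand), the first enzyme, was covered by 1, 6, 2, 7 and 0 counts in the heterozygotes and 1, 6, 3, 3 and 10 counts in the knockouts. These counts stood for 0.0420, 0.737, 0.256, 0.777 and 0 CPM against 0.104, 0.458, 0.293, 0.308 and 0.566 CPM. Several libraries were at or under the level of 3 counts, so a difference in Phgdh was not detectable at this depth. Psph, the third enzyme, was at 15.2 ± 1.27 CPM (SD, n = 5) in the heterozygotes and 15.03 ± 1.82 CPM (n = 5) in the knockouts. Its log2 fold change was -0.02 with a standard error of 0.125 (edgeR adjusted p 0.948), and its sign changed with the scaling (0.07 with library totals alone).

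Gdf15 (chromosome 8, 70629394 to 70631635, minus strand) encodes a secreted factor of the TGF-beta superfamily that acts on food intake through the brainstem. It was at 1.09, 0.246, 4.87, 0.888 and 0.689 CPM in the heterozygotes and at 3.02, 1.91, 4.10, 3.18 and 7.30 CPM in the knockouts, on 2 to 129 counts per library. Heterozygotes 1, 2, 4 and 5 lay below every knockout, whereas heterozygote 3 lay above 4 of the 5. The means of 1.56 ± 1.88 and 3.90 ± 2.05 CPM (SD, n = 5 each) gave a log2 fold change of 1.41 with a standard error of 0.568 (edgeR adjusted p 0.101). Without heterozygote 3, the animal with the high interferon-response genes and the highest leukocyte marker sum, the log2 fold change was 2.32 (edgeR adjusted p 0.00290). Without any other 1 animal it was 1.03 to 1.58 and did not pass (edgeR adjusted p 0.0865 to 0.263). With DESeq2 it was 1.35 (DESeq2 adjusted p 0.0606). With voom in place of edgeR, all animals included, it was 1.64 (limma adjusted p 0.0284). With the endothelial marker level as a covariate it was 0.89 (edgeR adjusted p 0.588). The part of the interferon response, of leukocyte RNA and of endothelial RNA in the Gdf15 values was not tested beyond these fits.

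**Figure D2:**
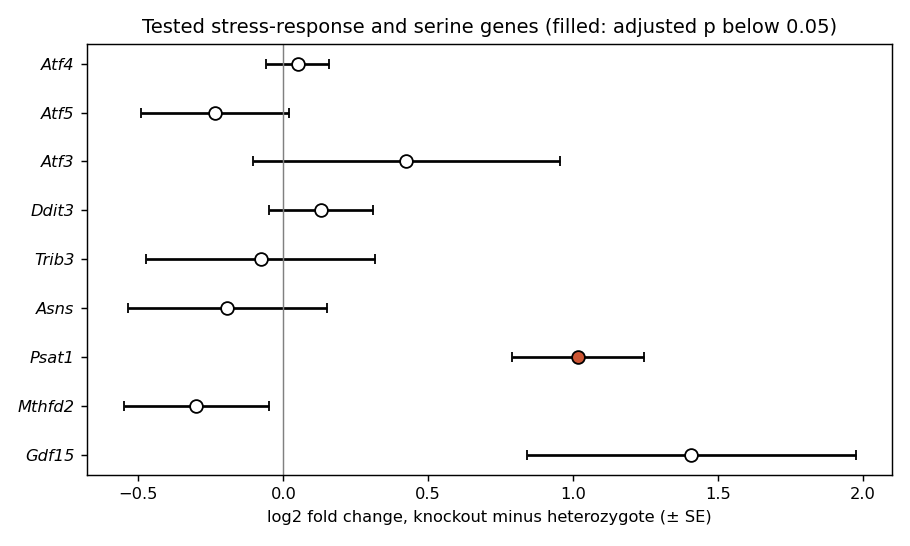
Log2 fold change, knockout minus heterozygote (x axis), of the 9 tested genes, with whiskers of 1 standard error. The filled point marks adjusted p below 0.05 in edgeR: Psat1 at 1.02 is filled, and Gdf15 at 1.41 is open with the longest whisker.

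Per kilobase of exon, the heterozygote levels of the 10 genes formed 3 steps. Phgdh was lowest at 0.194 ± 0.200 CPM per kilobase (SD, n = 5), and Trib3 followed at 0.568 ± 0.203 CPM per kilobase. Atf5 (1.23 ± 0.282), Asns (1.37 ± 0.478), Gdf15 (1.44 ± 1.73), Mthfd2 (1.63 ± 0.364) and Psat1 (1.74 ± 0.360 CPM per kilobase) came next, and neighbours in this order did not differ beyond their SD. Ddit3 (17.5 ± 3.92), Atf3 (33.9 ± 25.2) and Atf4 (44.9 ± 5.37 CPM per kilobase) were the highest, with Atf3 overlapping both of its neighbours. In the knockouts, Psat1 reached 3.52 ± 1.11 CPM per kilobase and Gdf15 3.60 ± 1.89, beside 1.32 ± 0.314 for Mthfd2 and 1.195 ± 0.554 for Asns. Within serine synthesis, Psph stood at 9.86 CPM per kilobase in the heterozygotes and 9.78 in the knockouts, above Psat1 in both groups.

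Among the 9 tested genes, the animals that ranked highest differed from gene to gene. In the heterozygotes, animal 3 had the highest level of Atf4, Atf3, Trib3 and Gdf15, animal 2 of Atf5, Ddit3 and Psat1, and animal 4 of Asns and Mthfd2. Heterozygote 5 was the lowest of its group for 5 of the 9 genes, and had no Phgdh count either. Among the knockouts, animal 4 was highest for Atf3, Trib3 and Asns, and animal 5 for Atf5, Ddit3 and Gdf15. Knockout 2 had the highest Psat1 of all animals and was the lowest knockout for 5 of the other genes, Atf4 among them.

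**Figure D3:**
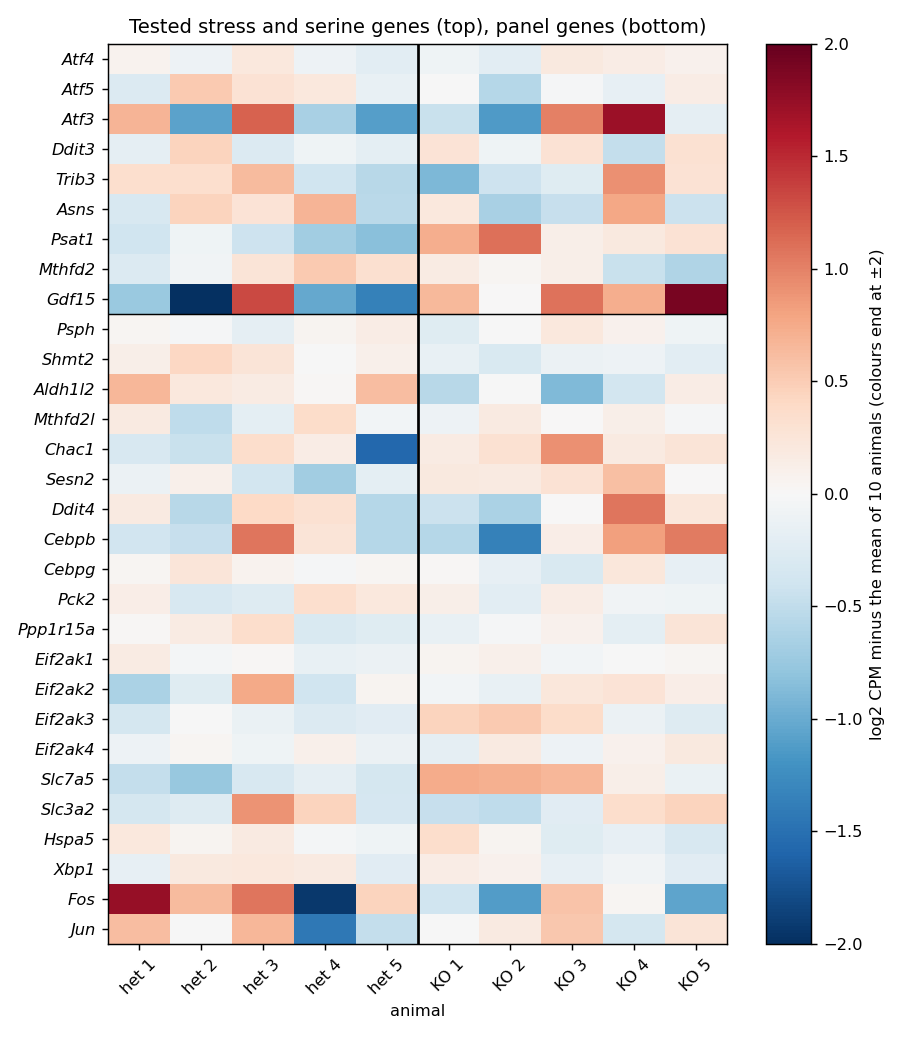
Log2 CPM of the 9 tested genes (top rows) and of tested panel genes of the pathway (bottom rows) in each animal (columns), centred on the gene's mean over the 10 animals; colour gives the difference on the log2 scale and ends at ±2. The Psat1 row changes colour between the groups, the Gdf15 row does so apart from heterozygote 3, and the Atf3 row follows single animals of both groups.

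Upstream of ATF4, 18 genes for the eIF2 kinases, the phosphatase and the exchange factor were all tested. None rose and 4 fell (22.2%, against 18.9% of all tested genes called in either direction and 8.64% lower), with a median log2 fold change of 0.01 beside 0.00 over all genes. The 4 eIF2 kinases did not pass: Eif2ak3 (PERK, the kinase of the endoplasmic reticulum) had a log2 fold change of 0.43 (edgeR adjusted p 0.112), and Eif2ak1 (HRI), Eif2ak2 (PKR) and Eif2ak4 (GCN2) had 0.04, 0.13 and 0.08. Eif2ak3 passed without knockout 5 (edgeR adjusted p 0.0475). Ppp1r15a, the ATF4-induced phosphatase subunit that ends the response, was at 57.3 ± 11.1 CPM in the heterozygotes and 56.7 ± 7.40 CPM in the knockouts (SD, n = 5 each). Within this list, the largest falls were in the genes of the relay known to carry mitochondrial stress to HRI. Falls of this size were not particular to the relay. The 14 mitochondrial chaperones and proteases described below had a median log2 fold change of -0.41, with Clpx at -0.70. Dele1, listed in the table as 0610009O20Rik, fell from 85.2 to 55.3 CPM (log2 fold change -0.62, edgeR adjusted p 0.00226), with no overlap between the groups. Oma1, the protease that cleaves DELE1, fell from 43.1 to 31.2 CPM (log2 fold change -0.47, edgeR adjusted p 0.0175), a call lost without heterozygote 1 (0.0542). Leaving out knockout 2, 3 or 4 brought the 4 falls to 2, and the endothelial covariate to 1.

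Of 21 other genes known as targets of ATF4 or CHOP, 17 were tested: 2 rose, 1 fell and 14 did not pass, with a median log2 fold change of 0.10. The called share of 17.6% is near the 18.9% of all tested genes, so the calls below describe single genes and not the list. Bbc3, the gene of the pro-apoptotic protein PUMA, rose from 3.03 to 5.47 CPM (log2 fold change 0.86, edgeR adjusted p 0.0280). That call was lost without heterozygote 1 or 3 or knockout 3 or 5, at adjusted p of 0.0592 to 0.0886. Sqstm1, which encodes the autophagy receptor p62, rose from 399 to 530 CPM (log2 fold change 0.41, edgeR adjusted p 0.00758), and every knockout was above every heterozygote. Gpt2, the mitochondrial alanine transaminase, fell from 66.2 to 39.5 CPM (log2 fold change -0.75, edgeR adjusted p 0.00148). Chac1, which degrades glutathione, had a log2 fold change of 0.65 (edgeR adjusted p 0.138) and the stress sensor gene Sesn2 one of 0.50 (edgeR adjusted p 0.0562). Sesn2 passed without heterozygote 2 (0.0286) or knockout 5 (0.0488), with library totals alone (0.0228), and also with DESeq2 and voom. Ddit4, Cebpb, Cebpg and Pck2 had log2 fold changes of 0.16, 0.14, -0.14 and -0.07 and did not pass. Nupr1, Fgf21 and Pycr1 were below the count filter.

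Amino acid transporter genes held, among these lists, the largest share of calls in the higher direction: of 8 tested out of 10, 3 rose (37.5%, against 10.2% of all tested genes) and none fell, although the list's median log2 fold change was -0.03. Without heterozygote 3 that median was 0.13. Slc1a4, a carrier of serine, alanine and other neutral amino acids, was at 0.756, 1.23, 1.41, 2.66 and 1.08 CPM in the heterozygotes and 5.31, 2.90, 4.49, 2.57 and 2.999 CPM in the knockouts. Only heterozygote 4 reached into the knockout range, and the log2 fold change was 1.39 with a standard error of 0.349 (edgeR adjusted p 0.0122). Slc7a5, the large neutral amino acid transporter, was at 6.30, 5.16, 7.05, 7.77 and 6.89 CPM in the heterozygotes and 14.8, 14.5, 14.0, 9.54 and 8.03 CPM in the knockouts. Every knockout was above every heterozygote (log2 fold change 0.87, standard error 0.198, edgeR adjusted p 0.00683). Slc38a1, a glutamine carrier named here after its values were seen, rose from 75.3 ± 8.79 to 122 ± 4.30 CPM (SD, n = 5 each; log2 fold change 0.70, edgeR adjusted p 0.000152). These 3 calls held under each of the other settings and left-out animals. Slc3a2, the heavy chain that pairs with the product of Slc7a5, had a log2 fold change of -0.19 (edgeR adjusted p 0.668), and its sign turned without heterozygote 3 (0.06). Slc7a11, the cystine carrier, was below the count filter.

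**Figure D4:**
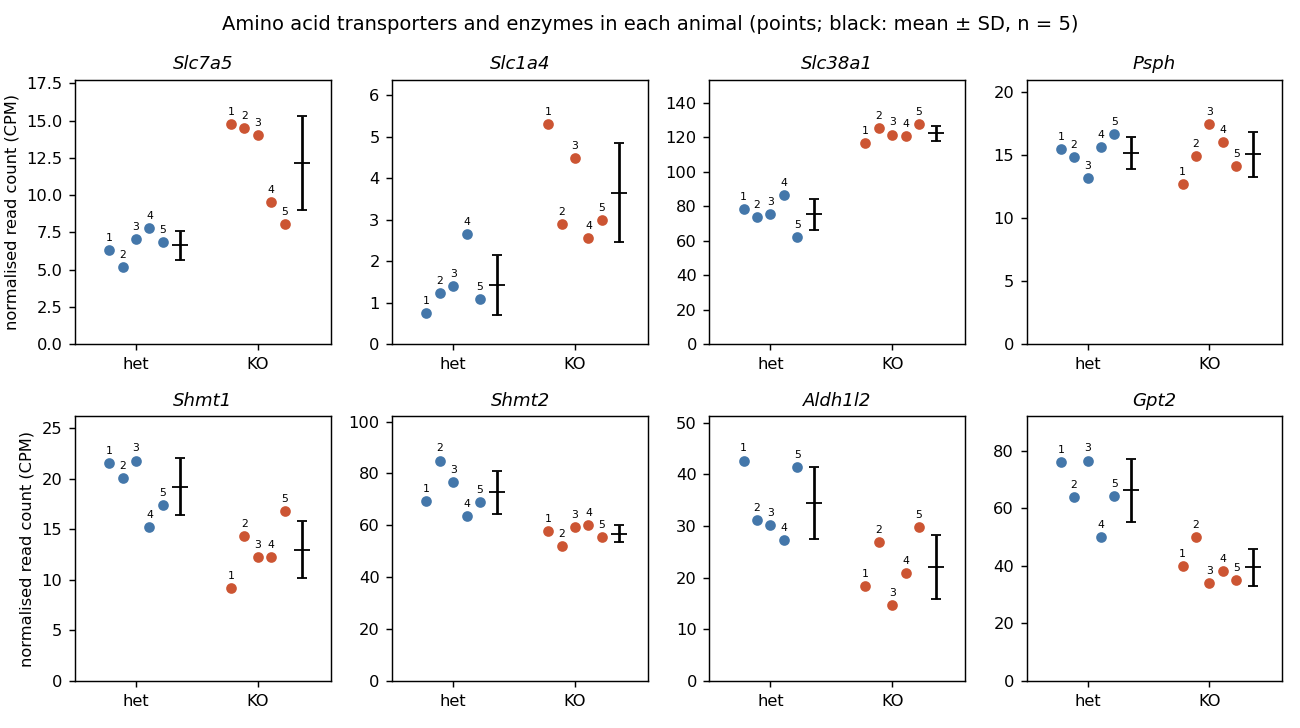
Level in CPM (y axis, linear from 0, own range per panel) of genes of serine synthesis, one-carbon metabolism and amino acid uptake in the 5 heterozygous and 5 knockout animals; points are animals, bars group means and whiskers SD. Slc7a5, Slc1a4 and Slc38a1 sit higher in the knockouts and Shmt1, Shmt2, Aldh1l2 and Gpt2 lower, while Psph covers the same range in both groups.

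In serine, glycine and one-carbon metabolism outside the 10 genes, 15 of 21 genes were tested: 1 rose and 3 fell, with a median log2 fold change of -0.11. The called share was 26.7%, against 18.9% of all tested genes in either direction, 10.2% higher and 8.64% lower. Shmt2, the mitochondrial enzyme that splits serine into glycine and a one-carbon unit, was at 69.2, 85.0, 76.8, 63.6 and 68.9 CPM in the heterozygotes and 57.7, 51.9, 59.2, 59.9 and 55.3 CPM in the knockouts. No knockout reached a heterozygote (log2 fold change -0.36, edgeR adjusted p 0.0177). Its cytosolic counterpart Shmt1 fell from 19.2 to 12.95 CPM (log2 fold change -0.56, edgeR adjusted p 0.0272), and the mitochondrial folate dehydrogenase gene Aldh1l2 from 34.5 to 22.1 CPM (log2 fold change -0.64, edgeR adjusted p 0.0285). The Shmt1 call was lost without heterozygote 1 or 3 or knockout 1, 3 or 4 (0.0546 to 0.0660), and the Aldh1l2 call without heterozygote 1 or 5 or knockout 1, 3 or 4 (0.0588 to 0.0764). Srr, serine racemase, rose from 23.9 to 31.0 CPM (log2 fold change 0.38, edgeR adjusted p 0.0252), but 31.3% of its exonic bases are shared with Tsr1 on the opposite strand. Its call was lost without heterozygote 1 or 4 or knockout 2 or 4 (0.0503 to 0.0690). Without heterozygote 1 or knockout 4, 1 gene of this list was called in all, and without knockout 3, 2 were. Mthfd2l, a paralogue of Mthfd2, had a log2 fold change of 0.05 (edgeR adjusted p 0.870), and Mthfd1l and Aldh1l1 were below the count filter.

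Mitochondrial, reticulum and synthetase genes were read in the same way. Of 14 mitochondrial chaperones and proteases, 9 fell (64.3%, against 18.9% of all tested genes called in either direction and 8.64% lower) and none rose, all 14 had a negative log2 fold change, and the median was -0.41. In 8 of them no knockout reached a heterozygote, against 6.32% of all tested genes in that direction. Clpx, the unfoldase of the ClpXP protease, fell from 219 to 135 CPM (log2 fold change -0.70, edgeR adjusted p 0.000917), and Phb2, a prohibitin of the inner membrane, from 402 to 245 CPM (-0.71, edgeR adjusted p 0.00342). Of 20 endoplasmic reticulum stress genes, 2 rose and 1 fell, with a median of 0.10, and the called share of 15% was below the 18.9% of all tested genes. Atf6, a sensor of that compartment, rose from 111 to 156 CPM (log2 fold change 0.49, edgeR adjusted p 0.00946), Sel1l of the degradation complex from 98.0 to 128 CPM (0.39, 0.00966), and Edem1, of the same degradation route, fell from 15.9 to 10.998 CPM (-0.52, 0.0168). The main chaperone gene Hspa5 had a log2 fold change of -0.11 (edgeR adjusted p 0.574) and Xbp1 one of -0.09 (0.630). Without knockout 5, 5 genes of this list were called. Of 20 cytosolic aminoacyl-tRNA synthetases, which ATF4 is also known to induce, 1 rose and 1 fell, with a median of -0.06, and the called share of 10% was below that background too. Lars rose from 91.1 to 125 CPM (log2 fold change 0.46, edgeR adjusted p 0.0168). Gars fell from 115 to 94.6 CPM (-0.28, edgeR adjusted p 0.0351), a call lost without heterozygote 1 or 2 or knockout 1, 3, 4 or 5 (0.0523 to 0.0933). With the endothelial marker level as a covariate, 3 of the 14 mitochondrial genes, none of the reticulum genes and none of the synthetases were called, and over all genes the count fell from 2241 to 968. That covariate also ended the calls of Oma1, Bbc3, Sqstm1 (edgeR adjusted p 0.170), Shmt2 (0.0924) and Srr, and scaling by library totals alone ended those of Shmt1, Aldh1l2 and Gars. The endothelial marker level itself followed genotype in part, at a mean log2 CPM of 5.76 to 6.43 in the heterozygotes and 5.10 to 5.88 in the knockouts. A call lost with this covariate therefore cannot separate genotype from endothelial RNA. The part of endothelial RNA in these lists was not tested further.

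**Figure D5:**
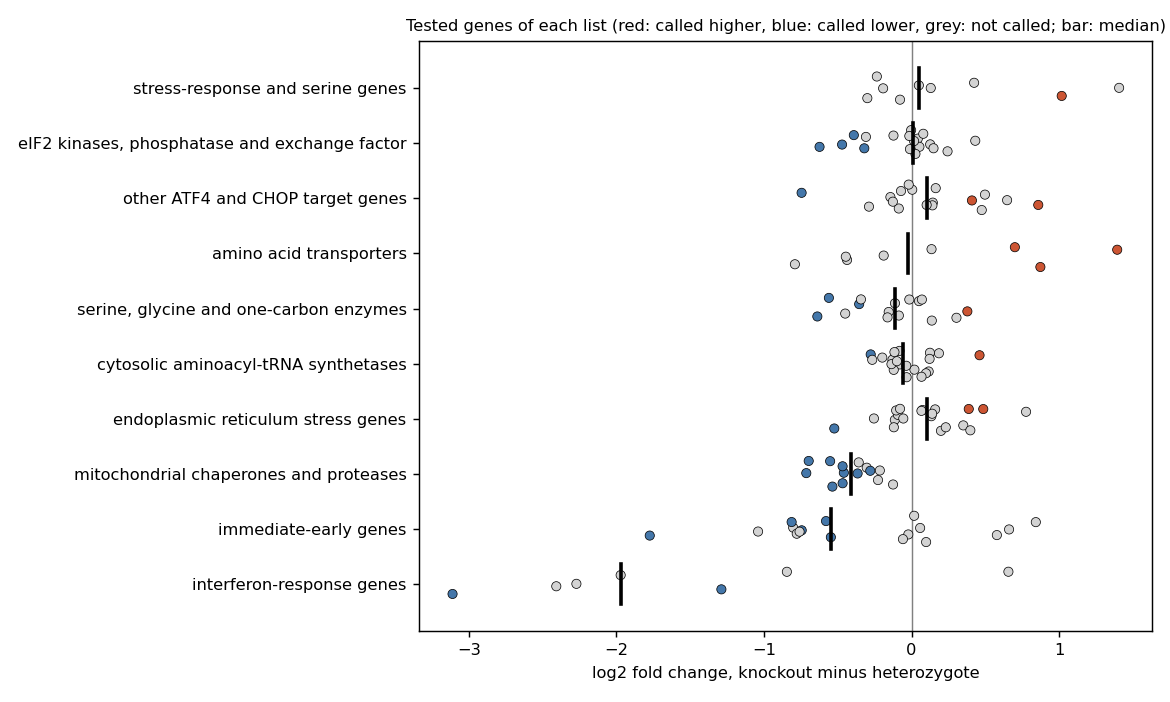
Log2 fold change, knockout minus heterozygote, of each tested gene (points) in each list, with the list's median as a bar; red points were called higher and blue points lower in edgeR, and grey points were not called. The mitochondrial chaperones and proteases lie wholly below 0, with a median of -0.41, while the medians of the eIF2 genes (0.01) and of the 10 named genes (0.05) lie near 0.

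The early-response list, set above beside Atf3, had a median log2 fold change of -0.55, and the interferon list, set beside Gdf15, one of -1.97. Without heterozygote 3 these medians were -0.39 and -0.55. Among the immediate-early genes, Socs3, an inhibitor of cytokine signalling, fell from 3.54 to 1.02 CPM (log2 fold change -1.77, edgeR adjusted p 0.000289). Junb fell from 55.2 to 31.4 CPM (-0.81, edgeR adjusted p 0.0459), a call lost without any 1 of heterozygotes 1 to 3 or of the knockouts (0.0567 to 0.117). Fos had a log2 fold change of -1.04 (edgeR adjusted p 0.147), called without heterozygote 4 (0.0144), and Jun one of 0.10 (0.862). Of 7 tested interferon-response genes, 2 fell (28.6%, against 8.64% of all tested genes called lower and 18.9% in either direction). Rsad2 fell by 1.29 and Usp18 by 3.11 on the log2 scale (edgeR adjusted p 0.0270 and 0.0407). The Usp18 change was -0.55 without heterozygote 3 (edgeR adjusted p 0.361) and lost its call without any 1 knockout (0.0720 to 0.0934), and the Rsad2 call was lost without knockout 3, 4 or 5 (0.0609 to 0.0631). The interferon list had 4 or 5 calls without any 1 of heterozygotes 1, 2, 4 and 5, and 0 or 1 without any 1 knockout. With heterozygote 3 left out, 1 of the 7 interferon-response genes was called higher and 1 lower. That fit called 1139 genes higher and 937 lower among all 11995 tested.

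The patterns most like that of Psat1 were sought among all tested genes outside the 10, as the smallest root-mean-square difference over the 10 samples of log2 CPM centred on each gene's heterozygote mean. The nearest was Zc4h2, a zinc-finger gene, with a difference of 0.165, which was at 1.84 CPM in the heterozygotes and 3.56 CPM in the knockouts (log2 fold change 0.94, edgeR adjusted p 0.0186, and 0.121 with the endothelial covariate). Next came Abcc1, an exporter of glutathione conjugates, with a difference of 0.214, at 71.6 and 138 CPM (log2 fold change 0.94, edgeR adjusted p 0.000319). In both, as in Psat1, knockouts 1 and 2 had the highest levels. The likeness over the same animals was used to choose these genes. Their fold changes and the shared high levels in knockouts 1 and 2 are therefore given only as a description.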

How the data were processed

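Processing covered RNA of sorted cardiomyocytes from 10 mice, 5 per genotype, grouped by the genotype label. Per the labels' protocols, 10 ng of RNA was reverse transcribed and amplified by 8 PCR cycles (SMART-Seq v4), and 500 pg of cDNA entered a Nextera XT library; the kit keeps no strand. The authors deposited raw counts per gene, made with featureCounts 1.5.1 on a UCSC mm10 annotation archived in 2012, per the file header. The submitters' processing notes name STAR 2.5.3a and Subread 1.5.2, which differs from the header. The table also holds 4 count columns of samples that were not used.

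From these deposited counts, edgeR 4.0.16 (R 4.3.3) fitted the 2 groups with trimmed-mean scaling, after filterByExpr (minimum count 10, minimum total count 15). The standard error is the log2 fold change divided by the root of F. Replicates of a group differed by more than sampling noise, with chi-square per degree of freedom from 10.8 to 37.5 over 20 pairs. No step with molecular identifiers is given in the sources used here, so the level of 3 counts covers counting error only. Alternatives were other scalings and filters, DESeq2 1.42.0, limma 3.58.1 voom, a replicate block, an endothelial covariate and leaving out each animal.

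The 10 genes, the lists and the rules were chosen with earlier results of these data known. Named were the 10 genes, Actn2, a panel of 26 pathway genes, up to 2 called genes per direction from each list, the 2 genes most like each called one, and Slc38a1. Motifs and sequences come from RefSeq promoters of GRCm38.p6.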

Additional observations from a re-analysis of the deposited data

Results flagged for a closer look

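In 5 of 106 groups of 5 animals that were looked at, the highest animal stood apart on the log2 scale: its gap to the next animal took up more than 0.71 of the group's range, which chance gives in about 1 of 20 groups. Ddit3 was at 21.2 CPM in heterozygote 2 and at 14.8 CPM in the next heterozygote (gap 0.735 of the range). Chac1 was at 10.2 CPM in knockout 3 and 6.72 CPM in the next knockout (gap 0.798). Lars was at 151 CPM in knockout 5 and 121 CPM in the next (gap 0.877). Both others were in heterozygote 3: Usp18 at 43.1 CPM with the next heterozygote at 1.998 CPM (gap 0.824), and Rsad2 at 22.3 CPM with the next at 7.67 CPM (gap 0.742).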

How the results depend on the processing

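Over 53 tested named genes and 19 other settings, 885 of 997 combinations kept direction and side of the threshold, 67 lost and 10 gained a call, and 35 changed sign; 18 genes, Psat1 among them, kept both throughout. The count of called genes was 968 with the endothelial covariate and 1699 to 2258 when 1 animal was left out. Library totals alone called 1684 genes higher and 760 lower, against 1216 and 1025 with trimmed-mean scaling. Of the 10 genes, 2 were called with the replicate block, 2 with voom and 1 to 2 with an animal left out. With the endothelial covariate, calls were 1 in the eIF2 list, 1 in the ATF4 and CHOP target list, 2 in the serine list, 0 in the synthetases, 0 in the reticulum list, 3 in the mitochondrial list and 0 in the interferon list. Library totals gave 2 in the eIF2 list, 2 in the serine list and 1 in the synthetases; no filter gave 1 in the synthetases and 6 in the interferon list; voom gave 5 in the reticulum list and DESeq2 1 in the interferon list. The replicate block gave 1 in the synthetases. Leaving out 1 animal gave 2 to 4 calls in the eIF2 list, 2 to 4 in the targets, 3 to 3 in the transporters, 1 to 4 in the serine list, 1 to 3 in the synthetases, 3 to 5 in the reticulum list, 7 to 10 in the mitochondrial list, 2 to 7 in the immediate-early list and 0 to 5 in the interferon list. Signs turned only where log2 fold changes had not passed: with the endothelial covariate Ddit3 -0.14, Trib3 0.01, Asns 0.45, Psph 0.00, Eif2ak1 -0.01, Slc3a2 0.03, Xbp1 0.09 and Jun -0.45; with library totals Trib3 0.02, Psph 0.07, Pck2 0.00 and Ppp1r15a 0.08; with voom Asns 0.02. With 1 animal left out, log2 fold changes ran from -0.10 to 0.86 for Atf3, -0.38 to 0.08 for Trib3, -0.07 to 0.04 for Psph, -0.05 to 0.16 for Mthfd2l, -0.17 to 0.31 for Ddit4, -0.14 to 0.51 for Cebpb, -0.15 to 0.01 for Pck2, -0.08 to 0.08 for Ppp1r15a, -0.01 to 0.39 for Eif2ak2, -0.34 to 0.06 for Slc3a2 and -0.12 to 0.30 for Jun. The cause was not tested. Same-numbered animals were not shown to be pairs: their deviations correlated at r of -0.06 to 0.19 over 5 pairs, 3 over 0.1, and 2 of 5 heterozygotes correlated best with their own number. The replicate block called 2182 genes in all and added Gdf15 (log2 fold change 1.62, edgeR adjusted p 0.0294); voom also added it (1.64, limma adjusted p 0.0284). Depth limits Phgdh, which had 0 to 10 counts per library.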
